A study of Mus musculus with 3 samples.

Results

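The genes examined here are 10 mouse genes whose products build the granules of platelets, out of 22225 protein-coding genes of the annotation. They were chosen by name, from genes known for granule defects, with earlier results of these data known. They are *Nbeal2* and *Vps33b*, needed for alpha-granules, *Rab27a* and *Rab27b*, the lysosome-related organelle genes *Hps1*, *Hps3*, *Hps4* and *Lyst*, the adaptor subunit gene *Ap3b1*, and *Slc35d3*. FLI1, RUNX1 and input reads were counted within 2 kb of each transcription start site (TSS) and, in bins of 400 bp, over each gene with 20 kb on either side, its territory.

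A megakaryocyte (MK) fills its platelets with 2 kinds of secretory organelle before it releases them. Alpha-granules carry adhesive proteins and growth factors, and dense granules carry serotonin, nucleotides and calcium. Both arise from endosomal compartments, with BEACH-domain proteins, RAB GTPases, the adaptor AP-3 and the BLOC complexes. Inherited loss of these proteins causes gray platelet syndrome, arthrogryposis-renal dysfunction-cholestasis, Griscelli, Chediak-Higashi and Hermansky-Pudlak syndromes. FLI1 is an ETS-family factor and RUNX1 a Runt-family factor, and inherited defects of either are known for abnormal platelet granules.

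The cells were mature MKs from livers of wild-type CD1 mouse embryos, cultured for 5 days with thrombopoietin. The sample labels give embryonic day 15, whereas the study's methods give the day before. MKs were enriched by depleting cells with antibodies to other lineages and by sedimentation through albumin gradients, so other cells may remain. There was 1 chromatin immunoprecipitation library with an antibody to FLI1, 1 with an antibody to RUNX1 and 1 of input DNA, and the labels give no difference between them but the antibody. The study's methods, however, describe sonicated chromatin for FLI1 and RUNX1 and an input digested with micrococcal nuclease, and the input reads are 34 bases long where the ChIP reads are 50. Ratios over input may therefore set different chromatin preparations against each other, and the part of this in the values was not tested. Each ChIP library was made from 3 or more precipitates mixed together, which hides the spread between them, and no test between conditions was possible. Intervals given here are exact 95% intervals and cover counting error only.

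The FLI1 library held 62946422 usable reads, the RUNX1 library 3973856 and the input 21745220, so a 400-bp bin was expected to hold 13.5 FLI1 reads but 0.85 RUNX1 reads. The RUNX1 file holds far fewer reads than the study's own summary of this library lists, and every RUNX1 value here is limited by that depth. The labelled cell type was checked at marker genes, by occupancy since the files hold no RNA. The 4 MK markers *Itga2b*, *Gp9*, *Gp1ba* and *Pf4* all had a strong FLI1 bin, as defined below for the granule genes, within 2 kb of the TSS, as did 1 of 4 granulocyte and macrophage markers (*Mpo*), 0 of 3 erythroid and 0 of 2 hepatocyte markers. Of all genes 28.6% had such a bin, so these few counts cannot show that other cells were absent. The lymphoid marker *Cd3e* had no such bin within 2 kb of its TSS. Over its whole territory, however, *Cd3e* held 2 strong FLI1 bins and 2 strong RUNX1 bins, the latter as many as the 10 granule genes together.

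A bin was called strong for FLI1 when it held at least 4 times the expected reads, and strong for RUNX1 at 8 times the expected reads and at least 7 reads. The expectation was taken from the whole genome or from the input in the surrounding 1, 5 or 10 kb, scaled to library depth, whichever was largest. A run of adjacent strong bins is a region, and its summit is the position with most read centres around it. The 10 territories held 29 FLI1 regions, of which the sequences below carry the main results. They show the promoter with the highest FLI1 fold among the members' own (*Vps33b*), the 2 highest regions of *Nbeal2* and the intronic sites of *Rab27a* and *Slc35d3*. They also show the upstream site of *Ap3b1*, which holds both kinds of motif, and the RUNX1 site of *Lyst*. Each is read from genome build mm9 (NCBIM37) on the strand of the gene, within 50 bp of the summit, without bases annotated as UTR except in the 30-base *Lyst* site. Capitals mark ETS motifs (CCGGAA or CAGGAA, or TTCCGG or TTCCTG on the other strand) and RUNX motifs (TGTGGT or TGCGGT, or ACCACA or ACCGCA on the other strand).
Vps33b promoter, chr7:87414482-87414534, plus strand: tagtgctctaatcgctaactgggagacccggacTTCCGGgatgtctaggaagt
Nbeal2 intron, chr9:110547873-110547971, minus strand: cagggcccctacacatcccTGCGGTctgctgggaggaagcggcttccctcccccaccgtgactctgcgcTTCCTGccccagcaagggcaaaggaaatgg
Nbeal2 upstream site in a Ccdc12 intron, chr9:110568557-110568657, minus strand: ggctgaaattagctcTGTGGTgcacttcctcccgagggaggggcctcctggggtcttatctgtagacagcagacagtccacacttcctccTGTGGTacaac
Rab27a intron, chr9:72916676-72916776, plus strand: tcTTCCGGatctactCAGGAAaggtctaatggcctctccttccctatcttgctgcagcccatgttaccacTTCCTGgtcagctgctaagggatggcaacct
Lyst first exon and intron, chr13:13682750-13682779, plus strand: ACCACAgagcggaggtaaagACCGCAgcgg
Ap3b1 upstream site, chr13:95124691-95124791, plus strand: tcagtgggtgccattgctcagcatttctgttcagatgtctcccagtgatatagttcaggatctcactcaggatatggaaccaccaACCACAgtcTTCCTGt
Slc35d3 intron, chr10:19569978-19570078, minus strand: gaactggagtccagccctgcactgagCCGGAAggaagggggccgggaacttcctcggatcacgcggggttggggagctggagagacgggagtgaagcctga

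Within 2 kb of the TSS, FLI1 reads were highest over input at *Slc35d3* and *Vps33b* and lowest at *Rab27b* and *Nbeal2*, an order that changed in narrower windows. The ratio, scaled to depth, reached 1.5-fold or more at 6 of 10 genes, where 40.7% of the 21214 genes with enough input did. Its interval lay above 1 at 9 of 10, where 42.4% of all genes and 66.4% of CpG-rich genes (defined next) did. With plus-strand reads alone it did so at 6 of 10 genes (35.5% of all genes), the lower limit falling below 1 at *Nbeal2* (0.949), *Rab27a* (0.942) and *Hps3* (0.827). When FLI1 reads were drawn down to the RUNX1 number, in a single random draw, the count was again 6 (26.0% of all genes). In that draw *Rab27b* was gained and *Nbeal2*, *Hps1*, *Hps3* and *Lyst* were lost. The draw was not repeated, so which genes change may differ between draws. The median ratio was 1.71-fold over the 10 genes and 1.28-fold over all genes. Promoters rich in CpG dinucleotides held more FLI1 reads genome-wide. Among the 10945 genes with an observed over expected CpG ratio of 0.6 or more, 63.1% of those tested reached 1.5-fold and the median was 1.81-fold, and 9 of the 10 granule genes, all but *Rab27b*, belong to this class. Of those 9, 6 reached 1.5-fold and the median was 1.77-fold, so the share and the median of the granule genes were close to those of CpG-rich promoters.

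RUNX1 over input reached 1.5-fold at 7 of 10 genes, where 33.8% of all genes did, and 47.6% of CpG-rich ones, with a median of 1.66-fold against 1.19-fold over all genes and 1.45-fold over CpG-rich promoters. These ratios rest on 7 to 28 RUNX1 reads, and the interval lay above 1 at 2 genes, *Lyst* and *Hps4*, where 15.1% of all genes and 24.2% of CpG-rich genes had such an interval. *Ap3b1* joined them with plus-strand reads alone, at 3.65-fold (1.29 to 9.70), with reads not moved (1.14 to 4.68) and in the 500-bp window (1.30 to 16.3). In the 1-kb window both *Ap3b1* (1.03 to 6.01) and *Rab27a* (1.05 to 5.47) joined them, so that 4 genes had such an interval (16.8% of all genes). The RUNX1 intervals of all 10 genes overlap each other. Overlap does not show that the genes are equal, and differences between them were not tested. Reads of opposite strands also faced each other often in all 3 libraries. Per 100 plus-strand reads there were 26.8 (RUNX1), 149.1 (FLI1) and 25.5 (input) more minus-strand reads 80 to 400 bp downstream than in the next window of that width, where 45.2, 502.9 and 165.9 lay. The excess includes reads that gather at bound sites. Reads that face each other may be both ends of 1 fragment, whereas the intervals of all libraries take each read as independent.

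The counts changed with the window and the limit. At 2-fold, 3 of 10 genes passed for FLI1 (25.7% of all genes) and 3 for RUNX1 (16.7% of all genes). In windows of 1 kb and of 500 bp on either side, FLI1 reached 1.5-fold at 10 of 10 genes, where 49.1% and 54.8% of all genes did, with 5 to 17 input reads per gene in the narrower window. For the narrower windows the minimum of 10 input reads was kept on the 2-kb window and 1 input read was enough, so these ratios are less precise. The order of the genes also turned. Within 500 bp *Vps33b* was highest at 12.6-fold (6.04 to 31.7), followed by *Ap3b1* at 7.35-fold (3.48 to 18.6) and *Hps4*, while *Nbeal2* was at 4.75-fold (2.33 to 11.3) and *Slc35d3* at 2.99-fold (1.50 to 6.79). *Rab27b* was lowest within 500 bp at 1.73-fold (0.920 to 3.53), as it was within 2 kb. Within 1 kb it was not, at 1.93-fold where *Nbeal2* and *Lyst* were at 1.74-fold.

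**Figure D1:**
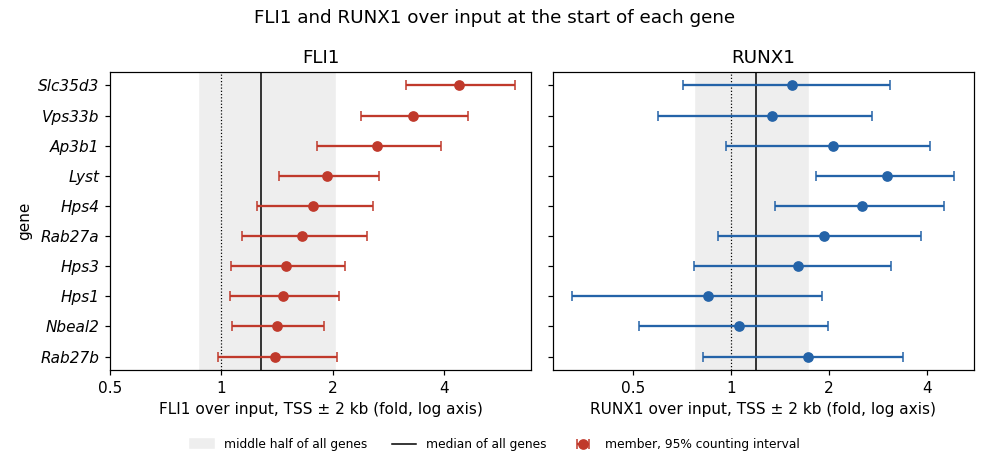
FLI1 (left) and RUNX1 (right) reads over input within 2 kb of the TSS, scaled to library depth, on a log axis. Points are the 10 genes with exact 95% counting intervals, the line is the median of all genes (1.28 for FLI1, 1.19 for RUNX1) and the grey band spans their 25th to 75th percentiles. *Slc35d3*, *Vps33b* and *Ap3b1* lie right of the band for FLI1, and the RUNX1 intervals overlap throughout.

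FLI1 and RUNX1 reads summed over the 10 genes were concentrated at the start itself, though not at every gene. *Vps33b* gave 256 of the 1079 FLI1 reads within 500 bp of the TSS. At *Slc35d3* 78 of 495 FLI1 reads lay there, fewer than an even spread gives. Summed over the 10 genes, FLI1 reads within 500 bp of the TSS were 3.20 times the genome-wide rate (3.01 to 3.40) and within 2 kb 1.90 times (1.82 to 1.97), against 3.09 and 1.66 times at CpG-rich promoters. RUNX1 reads were 2.35 times the rate within 500 bp (1.74 to 3.10) and 1.58 times within 2 kb (1.32 to 1.87), against 2.01 and 1.32 times at CpG-rich promoters. Input reads were 0.833 times the rate within 500 bp (0.676 to 1.02) and 0.907 times within 2 kb (0.823 to 0.998), against 0.754 and 0.865 times at CpG-rich promoters and 0.792 and 0.834 times at all genes. Over all genes and at CpG-rich promoters input thus fell towards the start. At genes with a CpG ratio under 0.6 it did not, with 0.828 times the rate within 500 bp and 0.805 times within 2 kb. Single genes differed in this. *Hps4* held 5 of its 39 input reads within 500 bp and *Nbeal2* 8 of 62, fewer than an even spread gives. *Lyst*, *Rab27a* and *Rab27b* held more than an even spread gives, with 17 of 51, 12 of 34 and 12 of 38. Ratios of single genes within 500 bp thus hold changes of input as well as of ChIP reads, and the part of each was not tested.

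At bin resolution, 6 of 10 genes had a strong FLI1 bin within 2 kb of the TSS, where 28.6% of all genes and 48.5% of CpG-rich genes did. These genes were *Nbeal2*, *Vps33b*, *Hps1*, *Lyst*, *Ap3b1* and *Slc35d3*. Over the whole territories, 32 of 2915 bins were strong for FLI1 (1.1%), where 0.597% of the bins of all territories and 0.734% of those of CpG-rich genes were. At least 1 such bin lay in 9 of 10 territories, where 52.9% of all genes and 72.1% of CpG-rich genes held 1. The median territory of the 10 genes spans 77.6 kb and that of all genes 55.6 kb. *Hps3* had no strong FLI1 bin, but had 1 at the TSS with 200-bp bins, as did *Hps4*. RUNX1 gave 2 strong bins (0.0686%, with 0.0349% of all bins), in 2 of 10 territories, where 6.4% of all territories and 9.26% of CpG-rich ones held 1. The bin at *Lyst* was the only strong RUNX1 bin within 2 kb of a member's TSS, where 2.32% of all genes and 4.22% of CpG-rich genes had such a bin. With the bins moved by 200 bp, neither RUNX1 bin was called and 3 of 10 genes had a strong FLI1 bin at the TSS. With limits 1.5 times higher, 0 RUNX1 bins were called and 2 genes had one for FLI1. Shares of all genes were not computed for the 200-bp bins, the moved bins or the higher limits, so these changes cannot be called particular to the members.

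**Figure D2:**
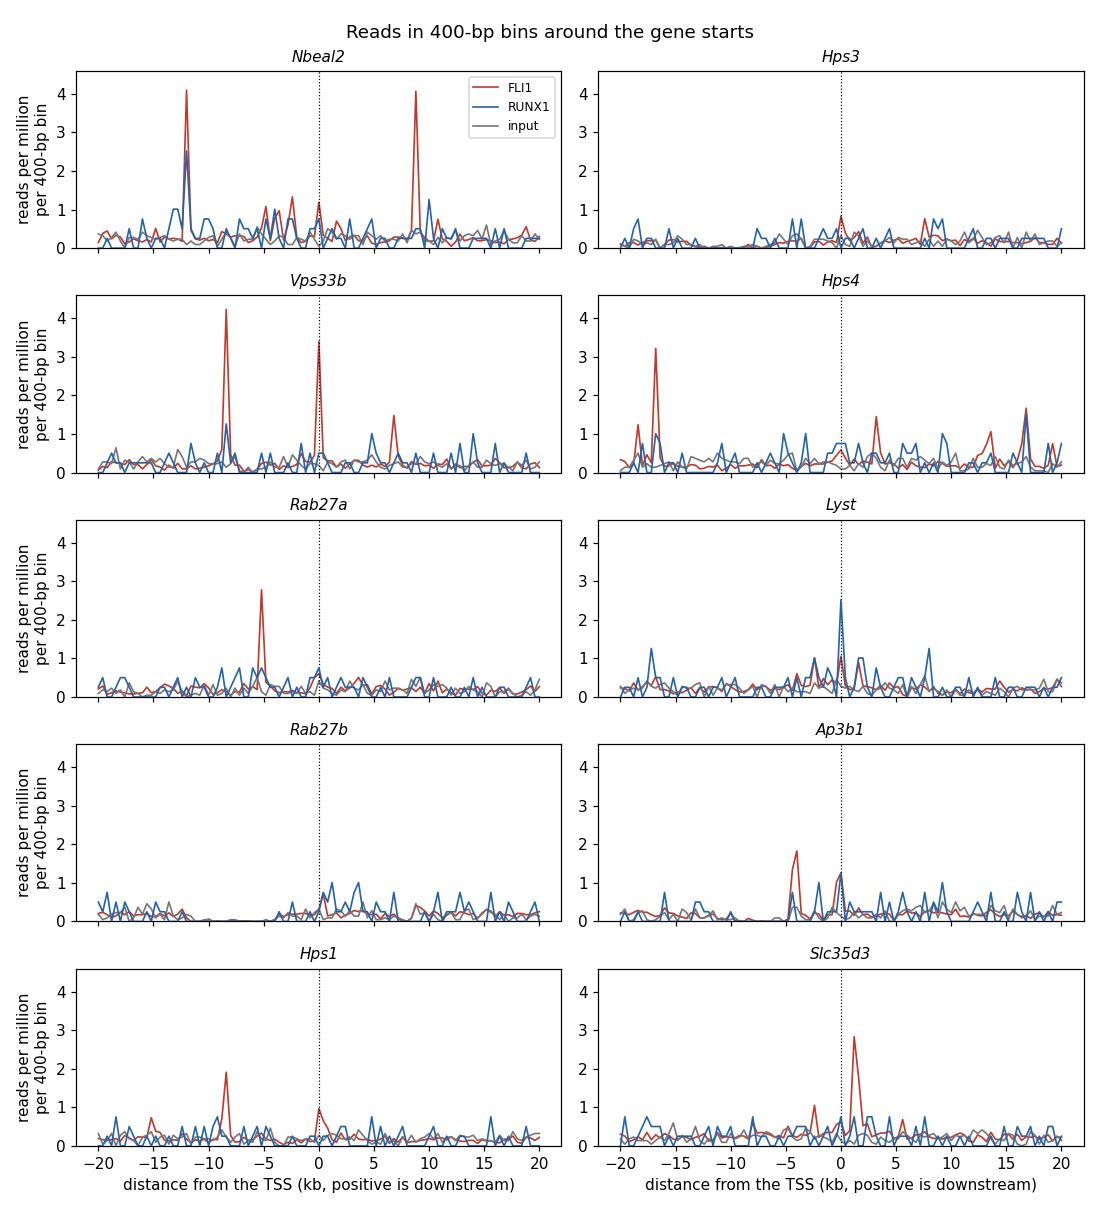
Reads scaled to library depth (RPM) in 400-bp bins, from 20 kb upstream to 20 kb downstream of each TSS, for FLI1 (red), RUNX1 (blue) and input (grey). FLI1 peaks at the TSS of *Vps33b*, on both sides of *Nbeal2* and 1237 bp into *Slc35d3*, while *Hps3* and *Rab27b* stay low across this range. A RUNX1 bin holds 0.85 reads on average, so the small blue peaks are mostly 1 or 2 reads.

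*Nbeal2* (ENSMUSG00000056724.7, chr9:110527293-110556665, minus strand) encodes the BEACH-domain protein whose loss causes gray platelet syndrome. Its TSS window held 254 FLI1, 12 RUNX1 and 62 input reads, which is 4.04, 3.02 and 2.85 RPM when scaled to the depth of each library (FLI1, RUNX1 and input). FLI1 was 1.42-fold over input (1.07 to 1.90) and RUNX1 1.06-fold (0.520 to 1.98). The wide window was therefore near the all-gene median for both factors, and the FLI1 signal lay in narrower places. The bin at the TSS held 75 FLI1 reads, 4.50-fold over expectation (3.54 to 5.64), with neither ETS motif within 50 bp of its summit.

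The 2 highest FLI1 regions of *Nbeal2* lay outside the TSS window. One, 8744 bp downstream in an intron, held 256 FLI1 reads at 10.5-fold (9.28 to 11.9) and 2 RUNX1 reads, and its summit lay 49 bp from the start of a shorter coding transcript. Counted around that internal start, FLI1 was 2.56-fold over input (1.93 to 3.45). The other, 11942 bp upstream in an intron of *Ccdc12*, held 258 FLI1 reads at 17.5-fold (15.5 to 19.8) and 10 RUNX1 reads at 10.8-fold (5.17 to 19.8). This bin was the only one in the 10 territories that was strong for both factors. Its 10 RUNX1 reads were 4 on the plus and 6 on the minus strand, and can come from as few as 8 fragments. Its FLI1 window, shown above, holds TGTGGT 2 times and neither ETS word searched. This bin lies 9600 bp from the *Ccdc12* TSS and thus nearer to that gene than to *Nbeal2*. Of the 2 weaker regions of *Nbeal2*, both upstream, the one at 2288 bp held 84 FLI1 reads and lay 54 bp from the *Ccdc12* TSS.

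*Vps33b* (ENSMUSG00000030534.6, chr7:87414535-87436465, plus strand) encodes a Sec1/Munc18-type protein needed for alpha-granules, whose loss causes arthrogryposis-renal dysfunction-cholestasis syndrome. Its TSS window held 391 FLI1, 10 RUNX1 and 41 input reads, or 6.21, 2.52 and 1.89 RPM. FLI1 was 3.29-fold over input (2.38 to 4.66), above 93.1% of genes, while RUNX1 was 1.33-fold (0.596 to 2.71). The bin at the start held 214 of those FLI1 reads, 14.2-fold over expectation (12.4 to 16.3), and 2 RUNX1 reads, and no other bin of the window held more than 31 FLI1 reads. Its summit lay 3 bp upstream of the TSS, and TTCCGG lies 20 to 15 bp upstream of the TSS. An intronic region 6901 bp downstream held 93 FLI1 reads at 6.13-fold (4.95 to 7.51) and 1 RUNX1 read. The largest region of the territory, and by fold of all 29, lay 8478 bp upstream and 44 bp from the TSS of the neighbour *Ngrn*, with 266 FLI1 reads at 19.8-fold (17.5 to 22.3), 5 RUNX1 reads and 4 ETS motifs in its window.

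*Rab27a* and *Rab27b* encode the GTPases that tether secretory granules to the plasma membrane, of which *Rab27b* is the main form in platelets. The *Rab27a* TSS window (ENSMUSG00000032202.4, chr9:72892672-72945399, plus strand) held 163 FLI1, 12 RUNX1 and 34 input reads, or 2.59, 3.02 and 1.56 RPM. FLI1 was 1.66-fold (1.14 to 2.47) and RUNX1 1.93-fold (0.911 to 3.82) over input. No bin within 2 kb of the TSS was strong, the highest FLI1 bin being 2.74-fold. The intronic region 24054 bp downstream held 173 FLI1 reads at 9.96-fold (8.53 to 11.6), with 3 ETS motifs in its window and 0 RUNX1 reads, a count that allows up to 3.36-fold. Further introns held regions of 70 FLI1 reads with 4 RUNX1 reads, 26223 bp downstream, and of 94 FLI1 reads with 1 RUNX1 read, 44898 bp downstream. Another 2 regions lay at neighbours, 175 FLI1 reads at 11.6-fold 10 bp from the *Pigb* TSS and 90 reads at 6.68-fold 9 bp from the *Rsl24d1* TSS.

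The *Rab27b* gene record on chromosome 18 starts at a promoter with an observed over expected CpG ratio of 0.374. The window there held 154 FLI1, 12 RUNX1 and 38 input reads, or 2.45, 3.02 and 1.75 RPM, with FLI1 at 1.4-fold (0.976 to 2.05) and RUNX1 at 1.73-fold (0.822 to 3.38) over input. This was the only FLI1 interval among the 10 that reached 1 or lower. The highest FLI1 bin within 2 kb of this start was 3.34-fold, under the limit of a strong bin. The study's list of genes raised in mature MKs places an FLI1 peak within 500 bp of the *Rab27b* start it used. The gene spans 162475 bp, and 2 of its 3 coding transcripts start 88017 bp inside it. Around that internal start were 476 FLI1, 11 RUNX1 and 58 input reads, and FLI1 was 2.84-fold over input (2.16 to 3.79) while RUNX1 was 1.04-fold (0.491 to 2.00). For *Rab27b* the choice of start thus moved FLI1 from the lower to the upper part of the range of the 10 genes. It took RUNX1 from above the 1.5-fold limit to below it. With the start shared by most transcripts, 6 of 10 genes reached the limit for RUNX1 and 7 for FLI1, and 7 had a strong FLI1 bin at the start. Shares of all genes at such starts were not computed, so these counts cannot be set against the genome. All 6 FLI1 regions of *Rab27b* were intronic, the highest with 235 FLI1 reads at 16.4-fold (14.3 to 18.6), 1724 bp upstream of the internal start, and 2 RUNX1 reads. The region with most RUNX1 reads held 5, with 94 FLI1 reads at 6.98-fold, and the others held 60 to 190 FLI1 reads.

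*Hps1* and *Hps4* encode the subunits of BLOC-3, an exchange factor for RAB GTPases, and *Hps3* encodes a subunit of BLOC-2, and loss of any of them causes Hermansky-Pudlak syndrome. The *Hps1* window (ENSMUSG00000025188.9, chr19:42829595-42854468, minus strand) held 191 FLI1, 7 RUNX1 and 45 input reads, with FLI1 at 1.47-fold (1.05 to 2.08) and RUNX1 at 0.851-fold (0.324 to 1.90). *Hps1* had the fewest RUNX1 reads of the 10 genes. The bin at its TSS held 61 FLI1 reads at 4.53-fold (3.47 to 5.82) and 0 RUNX1 reads, with CCGGAA 11 to 16 bp downstream of the TSS. A region 8542 bp upstream, with no annotated coding start nearer than that of *Hps1*, held 120 FLI1 reads at 7.97-fold (6.61 to 9.53), 1 RUNX1 read and 2 ETS motifs.

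At the other BLOC-3 gene the RUNX1 ratio was the larger of both factors. The *Hps4* window (ENSMUSG00000042328.6, chr5:112772115-112807434, plus strand) held 200 FLI1, 18 RUNX1 and 39 input reads, with FLI1 at 1.77-fold (1.25 to 2.57) and RUNX1 at 2.53-fold (1.36 to 4.52), above 92.1% of genes. The intervals of the 2 genes overlap for both factors. No *Hps4* bin of 400 bp within 2 kb of the TSS was strong, the highest FLI1 bin being 2.42-fold. Within 500 bp of the TSS there were 75 FLI1, 8 RUNX1 and 5 input reads. FLI1 was at 5.18-fold (2.12 to 16.4) and RUNX1 at 8.76-fold (2.53 to 34). FLI1 and RUNX1 reads were denser there than over the wider window and input reads sparser, and both changes raised the ratios. The study's list of genes raised in mature MKs places the nearest FLI1 peak within 500 bp of the *Hps4* TSS. Its nearest RUNX1 peak lies beyond 2 kb, so the RUNX1 ratio here has no peak of the study beside it. Its intronic region 16680 bp downstream held 105 FLI1 reads at 5.67-fold (4.64 to 6.86) with 6 RUNX1 reads at 5.13-fold (1.88 to 11.2). The remaining region, 203 FLI1 reads at 14.5-fold, lay 4 bp from the TSS of the neighbour *Tfip11*.

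The *Hps3* window (ENSMUSG00000027615.7, chr3:19895945-19935315, minus strand) held 178 FLI1, 12 RUNX1 and 41 input reads, with FLI1 at 1.50-fold (1.06 to 2.16) and RUNX1 at 1.60-fold (0.766 to 3.11). Its FLI1 ratio fell just under the 1.5-fold limit before rounding. Its highest bin within 2 kb of the TSS was 3.86-fold, just under the limit of a strong bin. *Hps3* was thus the member with an FLI1 interval above 1 and no strong FLI1 bin among its 199 bins of 400 bp. In 22 of those bins the 3 libraries together held at most 3 reads, with the longest such stretch, 4.4 kb, upstream of the gene, and occupancy there could not be seen. Such bins numbered 62 at *Lyst*, 46 at *Rab27b*, 35 at *Ap3b1* and at most 2 at each of the other 6 genes.

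*Lyst* (ENSMUSG00000019726.9, chr13:13682676-13869710, plus strand), a large BEACH-domain gene mutated in Chediak-Higashi syndrome, was the member with most RUNX1 reads. Its TSS window held 286 FLI1, 28 RUNX1 and 51 input reads, or 4.54, 7.05 and 2.35 RPM. RUNX1 was 3.00-fold over input (1.82 to 4.86), above 95.9% of genes, and FLI1 1.94-fold (1.43 to 2.66). The RUNX1 window reads were 12 on the plus and 16 on the minus strand, and can come from as few as 20 fragments. With plus-strand reads alone, RUNX1 was 2.85-fold (1.29 to 5.98) at *Lyst* and 3.04-fold (1.25 to 6.94) at *Hps4*, both below *Ap3b1*, but the *Lyst* bin described next held 4 such reads, under the minimum of 7, and was not called. The strong bin lay at the TSS, with 10 RUNX1 reads at 8.05-fold (3.86 to 14.8), close to the 8-fold limit. As few as 6 fragments could give those 10 reads. Its summit lay 55 bp downstream of the TSS, in the first exon, and the 30-base stretch shown above, which spans the end of that exon, carries 2 RUNX motifs on the strand opposite to the gene, the second of them in the intron. The same bin held 66 FLI1 reads and was not strong for FLI1. Strong FLI1 bins flanked it, with 64 FLI1 and 4 RUNX1 reads 2433 bp upstream and 56 FLI1 and 4 RUNX1 reads 1573 bp downstream.

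*Ap3b1* (ENSMUSG00000021686.3, chr13:95128915-95336271, plus strand) encodes the beta subunit of AP-3, the adaptor that sorts cargo to dense granules. Its TSS window held 244 FLI1, 12 RUNX1 and 32 input reads, or 3.88, 3.02 and 1.47 RPM. FLI1 was 2.63-fold over input (1.82 to 3.94), above 86.3% of genes, and RUNX1 2.05-fold (0.963 to 4.09). A region of 2 strong bins 366 bp upstream held 143 FLI1 reads at 5.01-fold (4.23 to 5.91) and 6 RUNX1 reads at 3.33-fold (1.22 to 7.25), and lay 224 bp from the TSS of the annotated gene *Gm9776*. A second pair of strong bins 4174 bp upstream held 200 FLI1 reads at 5.23-fold (4.53 to 6.01), 3 RUNX1 reads and 16 input reads. No other region held as many input reads, but these lay 8 in each bin, and the single-bin *Hps4* region 16680 bp downstream held 9. The window of the *Ap3b1* region, shown above, ends in ACCACA and TTCCTG. An intronic region 23213 bp downstream held 87 FLI1 reads at 6.46-fold (5.18 to 7.97) and 0 RUNX1 reads, a count that allows up to 4.34-fold.

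*Slc35d3* (ENSMUSG00000050473.4, chr10:19567723-19571265, minus strand) encodes a nucleotide sugar transporter family member needed for platelet dense granules in mice. Its TSS window held 495 FLI1, 11 RUNX1 and 39 input reads, or 7.86, 2.77 and 1.79 RPM. FLI1 was 4.38-fold over input (3.16 to 6.24), above 97.7% of genes and first among the 10, and RUNX1 was 1.54-fold (0.713 to 3.07). Its FLI1 interval overlaps those of *Vps33b* and *Ap3b1* and lies above those of the other 7 genes. Of the 495 FLI1 reads, 78 lay within 500 bp of the TSS, where FLI1 was 2.99-fold over input (1.50 to 6.79). More lay in a single region of 2 strong bins in the intron, 1237 bp downstream, with 290 FLI1 reads at 10.2-fold (9.03 to 11.4) and 3 RUNX1 reads. CCGGAA lies 1213 to 1218 bp downstream of the TSS in this region, which was the only one of the gene.

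**Figure D3:**
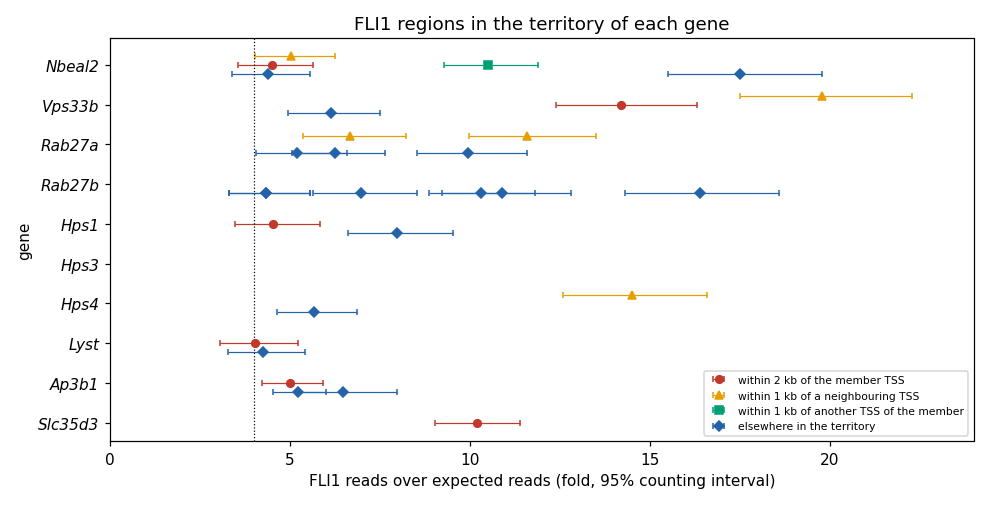
FLI1 reads over expected reads for the 29 FLI1 regions, by gene, with 95% counting intervals and the 4-fold limit as a dotted line. Red circles lie within 2 kb of the member's TSS, orange triangles within 1 kb of a neighbour's TSS, the green square at another TSS of *Nbeal2* and blue diamonds elsewhere. The folds run from 4.03 to 19.8, *Hps3* has none, and the 6 regions of *Rab27b* are all blue.

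Most FLI1 regions of these territories were thus not at the members' own starts. Of the 29, 6 had their summit within 2 kb of the member's TSS, 5 others lay within 1 kb of a neighbour's TSS, 1 lay within 1 kb of another start of the member and 17 lay elsewhere. These are 20.7%, 17.2%, 3.45% and 58.6% of the 29. Over the territories of all genes, with a region counted once in each territory that holds it, the shares were 29.2%, 26.4%, 2.29% and 42.1% of 23586, so most regions lay away from the gene's own start there too. Of the first 6, the *Ap3b1* region lay nearer to *Gm9776* than to *Ap3b1*, and 1 of the 17 was the *Rab27b* region 1724 bp from the internal start. By annotation 17 summits were intronic, 15 of them in the member itself, 10 were intergenic and 2 exonic. Regions at neighbours' starts, that of *Gm9776* included, cannot be assigned to a member from these files. An ETS motif lay within 50 bp of the summit in 19 of 29 regions (65.5%), against 64.4% of the 13450 FLI1 regions of all territories and 20.0% of equal windows at all coding TSSs. A RUNX motif lay in 7 of 29 windows (24.1%), against 18.0% of all FLI1 regions and 7.91% of coding TSSs. In both motif shares the regions of the granule genes were close to FLI1 regions in general.

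RUNX1 reads were above expectation where FLI1 was strong. The strong FLI1 bins of the 10 territories held 84 RUNX1 reads where 31.1 were expected, 2.70-fold (2.16 to 3.35), and those of all territories 2.61-fold (2.59 to 2.63). Region by region the counts were small. In 7 of 29 regions there were 0 or 1 RUNX1 reads, in 15 there were 3 or more, and in 9 the interval of RUNX1 over expectation lay above 1. The same counts were not made for the FLI1 regions of all territories, so they cannot be called particular to these genes. The regions with 290 and 256 FLI1 reads, in introns of *Slc35d3* and *Nbeal2*, held 3 and 2 RUNX1 reads. Those with 266 and 258 FLI1 reads, upstream of *Vps33b* and *Nbeal2*, held 5 and 10. For the *Slc35d3* and *Nbeal2* introns the RUNX1 intervals over expectation were 0.344 to 4.87 and 0.158 to 4.71. Both hold the pooled 2.70-fold, so these low counts cannot show a lack of RUNX1.

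**Figure D4:**
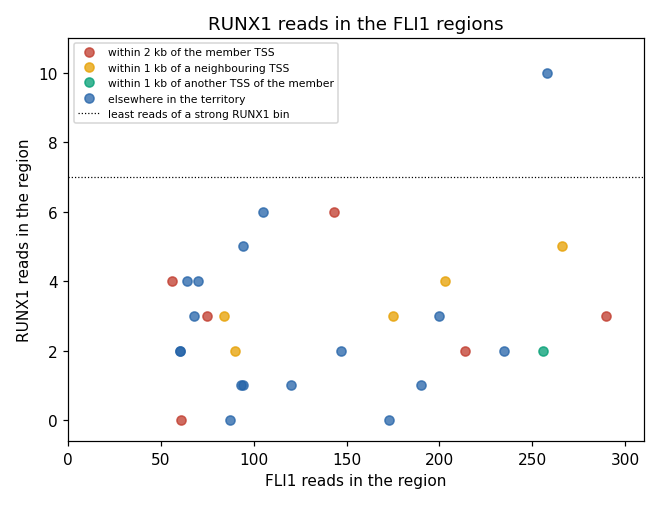
RUNX1 reads against FLI1 reads in each of the 29 FLI1 regions, coloured by position, with the dotted line at the 7 reads that a strong RUNX1 bin needs. A single region, upstream of *Nbeal2* with 258 FLI1 and 10 RUNX1 reads, lies above the line, and the next highest hold 6 RUNX1 reads.

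The 10 genes were then set beside 46 other genes of the same machinery, listed by complex. Of these, 35 reached 1.5-fold for FLI1 over input (76.1%, with 63.1% of CpG-rich genes), 31 had a strong FLI1 bin at the TSS (67.4%, with 48.5% of CpG-rich genes), and the median FLI1 ratio was 2.18-fold against 1.71-fold for the 10 genes. For RUNX1, 23 reached 1.5-fold (33.8% of all genes and 47.6% of CpG-rich ones), 12 had an interval above 1 (26.1%, with 15.1% of all genes and 24.2% of CpG-rich ones) and 3, *Hps5*, *Rabggta* and *Vamp8*, had a strong bin at the TSS (6.52%, with 2.32% of all genes and 4.22% of CpG-rich ones). The median CpG ratio of the 46 genes was 0.748, so most are CpG-rich. The complexes of the members differed among their own subunits. Of the other 6 AP-3 genes, 5 reached 1.5-fold for FLI1, with *Ap3s1*, the sigma subunit, at 6.32-fold (4.16 to 10.1), and the exception was *Ap3b2* at 0.944-fold (0.654 to 1.38), a gene used mainly in neurons. The other 2 BLOC-2 genes, *Hps5* at 4.80-fold (3.42 to 6.93) and *Hps6* at 1.67-fold (1.18 to 2.43), both had a strong FLI1 bin at the TSS, unlike *Hps3*. In BLOC-1, which holds no member, 7 of 8 genes reached 1.5-fold (87.5%). Of the 7 HOPS and VPS33B partner genes 5 did (71.4%). Beside these counts and that of the AP-3 genes (83.3%), 40.7% of all genes and 63.1% of CpG-rich genes reached 1.5-fold. With so few genes in each group, differences from these shares were not tested.

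Among the SNARE and SM genes, which fuse granules with membranes, all 6 reached 1.5-fold for FLI1 (40.7% of all and 63.1% of CpG-rich genes) and had a strong bin at the TSS (28.6% and 48.5%), with *Vamp3* highest at 4.41-fold (2.98 to 6.80). *Vamp8*, the main v-SNARE of platelet secretion, had the most RUNX1 reads of the 46, 22 at 2.94-fold (1.67 to 5.05), followed by *Snap23* at 3.32-fold (1.80 to 5.95) and *Bloc1s1* at 2.38-fold (1.33 to 4.10) with 20 each. Of the RAB genes and their effectors 4 of 8 reached 1.5-fold, a share near that of all genes. Their lowest members, *Myrip* at 0.700-fold (0.473 to 1.05), *Sytl1* at 0.840-fold (0.635 to 1.12) and *Rph3al* at 0.890-fold (0.642 to 1.25), were also the lowest of the 46, although each held strong FLI1 bins elsewhere in its territory.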

How the data were processed

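The deposited files are read positions (chromosome, start, end, strand), not counts or a normalized unit, and every count was made from them. Per the submitters' notes and the methods, the authors aligned the reads to mm9 by Bowtie and kept unique, non-redundant reads, and the notes also name MACS 1.4 and SICER 1.1. The ChIP files repeat no position. In the input, 3.24% of reads repeated one and were dropped, as were chromosome M reads. Of 90000 RUNX1 read sequences checked, 96.3% matched NCBIM37 with at most 2 differences. The labels describe sonication, whereas the methods describe an input digested with micrococcal nuclease. Reads were 50 bases in the ChIP files and 34 in the input.

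Each read was moved 75 bp towards its 3′ side. The TSS is the 5′ end of the GENCODE M1 gene record, the longest where a symbol has several (*Hps3* has 2 coding records). Ratios needed 10 input reads within 2 kb of the TSS, which 1011 of 22225 genes lacked, and 1 in narrower windows, and carry exact conditional binomial (Clopper-Pearson) intervals. Bin and region intervals are exact Poisson intervals on the reads alone. Promoter CpG ratios used 250 bp on either side. The strong-bin rule was tried on simulated reads with an even background, with each planted site filling a single bin. It recovered 1.0% of 200 FLI1 sites at 3-fold, 91.5% at 6-fold and 100.0% at 10-fold. For RUNX1 it recovered 12.5% of sites at 6-fold, 76.0% at 12-fold and 97.5% at 20-fold. Sites lying across bins, or on uneven background, were not simulated, so these shares are a best case. Python 3.11.15, numpy 2.4.6, pandas 2.3.3, scipy 1.17.1 and matplotlib 3.10.9 were used. The members and gene lists were chosen with earlier results of these data known. All 10 members are named, with the 3 highest and 3 lowest of the 46 other genes by FLI1 ratio, the 2 with most RUNX1 reads (a tie made these 3), neighbours within 1 kb of a region, and others, such as *Hps6*, *Rabggta* and *Ap3b2*, after their values were seen. Further marker genes are not reported here.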

Additional observations from a re-analysis of the deposited data

How the results depend on the processing

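No paired analysis was possible because each antibody has 1 library. The count of genes at 1.5-fold or more for FLI1 (6) became 10 with a TSS window of 1 kb and 10 with one of 500 bp, and 3 at a limit of 2-fold. For RUNX1 (7) it became 3 at 2-fold. Genes with a strong FLI1 bin at the TSS (6) became 3 with the bin grid moved by 200 bp, 2 and 9 with a fold limit 1.5 times higher and lower, 8 with 200-bp bins, 7 with FLI1 thinned at the 4-fold limit and 7 with the start shared by most transcripts, and 3 after thinning FLI1 reads to the RUNX1 number and using the RUNX1 limits, an alternative chosen after seeing the data. Strong FLI1 bins (32) became 72 with 200-bp bins, 18 and 62 with a limit 1.5 times higher and lower, 64 when thinned at the 4-fold limit, 11 when thinned with the RUNX1 limits and 20 in gene bodies alone. Genes with a strong RUNX1 bin at the TSS (1, *Lyst*) became 0 with reads not moved, with the grid moved, with the higher limit and with plus-strand reads alone, where the minimum of 7 reads was kept and 5 genes had a strong FLI1 bin. Strong RUNX1 bins (2) became 1 with reads not moved, 0 with the grid moved, 1 with 200-bp bins, 4 against the genome-wide rate alone, 0 and 4 with a higher and lower limit, and 1 in gene bodies alone. Thinning was a single random draw and was not repeated. When thinned to the RUNX1 number, a bin was expected to hold about 0.85 FLI1 reads, so few reads met the 4-fold limit. The cause of these moves was not tested. Of 150 values of single genes, 131 moved by less than their counting interval and 19 moved more. RUNX1 crossed 1 at *Hps1*, from 0.851 to 1.04 with the 1-kb window, and at *Vps33b*, from 1.33 to 0.995 with plus-strand reads alone, and all these intervals span 1. Plus-strand reads alone, also chosen after seeing the data, left 7 genes at 1.5-fold for FLI1 and 7 for RUNX1. Genes with an FLI1 interval above 1 (9) became 6 with plus-strand reads alone and 6 when thinned, and 10 with the 1-kb window and with the start shared by most transcripts. For RUNX1 (2) they became 4 with the 1-kb window, and 3 with the 500-bp window, with reads not moved and with plus-strand reads alone. Where no share of all genes is given above for a setting, the count covers the 10 genes alone and cannot be called particular to them.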
